A study of Homo sapiens with 51 samples.

Results

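The ERBB receptors and their ligands were followed as 10 genes, 4 receptors (EGFR, ERBB2, ERBB3 and ERBB4) and 6 ligands (AREG, EREG, TGFA, HBEGF, BTC and EPGN). They were taken by gene symbol from a table of 25421 symbols, and each symbol had its own entry. The table came from PLATE-seq, a pooled RNA-seq method that reads the 3′ ends of transcripts, run on 100 ng of total RNA from human pancreatic ductal adenocarcinoma cell lines. It held 51 libraries in 17 groups of 3.

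All 5 lines (HPAFII, PATU8988S, KP4, PANC1 and PK45H) were sequenced untreated. KP4, PANC1 and PK45H were also transduced with lentivirus carrying the open reading frame of OVOL2, a zinc-finger transcription factor associated with epithelial identity, or of mCherry, a red fluorescent protein used as the control. Each vector was given alone or together with M2rtTA, the transactivator that drives tetracycline-inducible promoters. The transduced groups were therefore mCherry, OVOL2, mCherry + M2rtTA and OVOL2 + M2rtTA. The viruses were added at a multiplicity of infection of 2 with 8 µg/ml polybrene, puromycin (2.5 µg/ml) and doxycycline (0.6 µg/ml) followed the next day, and the cells were kept for 6 days in all. Thus mCherry controls shared the virus, the antibiotic and doxycycline with the OVOL2 cells, and HPAFII and PATU8988S had no transduced arm. The labels call the libraries triplicates without saying whether cultures were separate, so the p-values measure only the spread between these libraries, which may be technical. In bulk RNA, a change in the share of cells that hold a transcript and a change in the amount per cell cannot be told apart.

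ERBB receptors are tyrosine kinases of the cell surface that pair with one another when an EGF-like ligand binds. EGFR and ERBB4 bind ligands and signal themselves, ERBB2 has no known ligand and acts as a partner, and ERBB3 binds neuregulins but has a weak kinase and depends on a partner. The ligands are made as membrane proteins and released by metalloproteases, and in ductal pancreatic cancer the receptors act upstream of RAS, which is commonly mutated there.

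Library totals ran from 1165399 counts in 1 HPAFII library to 7490556 in a PANC1 library. Levels are in CPM, a gene's counts scaled to the size of its library with TMM factors, and a fold change is the log2 ratio fitted by edgeR with its standard error (SE) and a Benjamini-Hochberg adjusted p over all genes tested. All 5 of the epithelial markers used to check the labels (EPCAM, KRT7, KRT8, KRT18 and KRT19) had a median over 1 CPM in every line. Their summed level was 4653 to 14329 CPM in HPAFII and PATU8988S and 608 to 4744 CPM in the other lines, while leukocyte, endothelial, fibroblast and acinar marker sums stayed at or below 65.1 CPM. The OVOL2 transcript averaged 4.98, 2.15 and 4.52 CPM in the KP4, PANC1 and PK45H OVOL2 + M2rtTA groups and 0.54, 0.85 and 1.11 CPM in their mCherry + M2rtTA controls. Without M2rtTA, its mean was 1.16, 0.89 and 1.47 CPM in the OVOL2 groups and 1.12, 1.13 and 1.25 CPM in the mCherry groups. A 3′-end count need not include the vector's transcript, so these values do not check the transduction.

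Some libraries stood apart from their group. HPAFII replicate 2 was the shallowest of all and had the lowest EGFR, ERBB2, ERBB3, AREG, EREG, TGFA and BTC of the HPAFII libraries. ERBB3 was more than 5 times the next library of its group in 4 transduced libraries, all mCherry controls: KP4 mCherry replicate 1, KP4 mCherry + M2rtTA replicate 2, PANC1 mCherry replicate 2 and PK45H mCherry + M2rtTA replicate 1. Results of other genes that changed when these were left out are given both ways. ERBB3 itself is given without a high library only for the OVOL2 comparisons.

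A group of 4 ligand genes lies together on chromosome 4, and 3 of its promoters are printed, those of AREG, EREG and BTC. AREG and EREG were called higher over the lines after OVOL2 both without and with M2rtTA. BTC was called higher only with M2rtTA, from few counts, and its OVOL2 and mCherry libraries overlapped in all 6 line comparisons. In GRCh38.p14 the order is EPGN (74308470 to 74316789), EREG (74365145 to 74388749), AREG (74445136 to 74455005) and BTC (74744759 to 74794523), with BTC on the minus strand and the others on the plus strand. The group spans 486 kb, with gaps of 48.4 kb, 56.4 kb and 290 kb, and the annotation lists 2 non-coding RNA genes inside it, both between AREG and BTC. The other genes lie elsewhere: EGFR on chromosome 7 (55019017 to 55211628), ERBB2 on 17 (39688094 to 39728658), ERBB3 on 12 (56080108 to 56103505), ERBB4 and TGFA on 2 (211375717 to 212538802 and 70447284 to 70553826) and HBEGF on 5 (140332843 to 140346603). The windows are the 250 bases before each RefSeq start site, written along the gene's own strand, at chr4:74444886-74445135 for AREG, chr4:74364895-74365144 for EREG and chr4:74794524-74794773 for BTC. Capitals mark matches to the searched motifs. BTC was shown under the rule for the largest rise, and AREG and EREG were added after their values were seen.
AREG: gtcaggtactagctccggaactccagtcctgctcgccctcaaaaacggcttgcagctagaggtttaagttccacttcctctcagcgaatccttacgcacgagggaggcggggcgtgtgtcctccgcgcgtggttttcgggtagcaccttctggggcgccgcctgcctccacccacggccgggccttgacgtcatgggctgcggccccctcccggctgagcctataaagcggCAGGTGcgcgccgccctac
EREG: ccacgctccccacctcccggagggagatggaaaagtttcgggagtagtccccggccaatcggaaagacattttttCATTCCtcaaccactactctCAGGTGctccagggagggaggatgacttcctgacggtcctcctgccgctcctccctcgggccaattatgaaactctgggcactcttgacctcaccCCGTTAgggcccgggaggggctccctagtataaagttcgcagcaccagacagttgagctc
BTC: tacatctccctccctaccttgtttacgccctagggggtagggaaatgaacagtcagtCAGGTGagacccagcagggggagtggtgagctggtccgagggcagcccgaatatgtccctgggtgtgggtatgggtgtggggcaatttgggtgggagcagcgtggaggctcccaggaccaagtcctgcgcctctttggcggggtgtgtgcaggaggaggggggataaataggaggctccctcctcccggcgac
The motifs searched on both strands were CCGTTA, the core of sites reported for OVOL proteins, CACCTG, the E-box bound by ZEB repressors, AACCGGTT (grainyhead-like factors), TGANTCA (AP-1) and GGAATG (TEAD). CACCTG was present on the reverse strand in each of the 3 windows, 19 bases before the start in AREG, 155 in EREG and 193 in BTC. It was also in the windows of TGFA and HBEGF, which were not called over the lines, on the forward strand at 42 and 248 bases before the start. Over 35116 promoter windows of the same length, 17.5% held CACCTG. The EREG window also held CCGTTA, 60 bases before its start, a motif found in 2.45% of all windows, and GGAATG on the reverse strand, 175 bases before, found in 11.9%. Neither CACCTG nor CCGTTA was in the windows of EGFR and ERBB2, which were called higher over the lines with M2rtTA. EGFR windows held TGANTCA at 232 and 136 bases and GGAATG on the reverse strand at 114 bases before a start. ERBB2 held TGANTCA at 222 bases, a motif found in 6.57% of all windows. Of the 10 genes, 9 had a promoter entry. A match of letters is a description and shows no binding.

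In the untreated lines, the average of HPAFII and PATU8988S was above that of KP4, PANC1 and PK45H for ERBB3, AREG, EREG, TGFA and BTC, and below it for EGFR. Not every line followed the averages: AREG was lower in PATU8988S than in PK45H in every library, EREG in PATU8988S was not separated from KP4, and EGFR in both lines was above KP4 in every library. A difference among the 5 lines was called for 8 of the 9 genes that could be tested, where 57.8% of all genes were called. EPGN did not pass the filter on low counts, and ERBB4 was the tested gene without a call. For the first 2 lines against the other 3, 5 of 9 were higher and 1 was lower, where 34.8% of all genes were called, 17.4% higher and 17.4% lower. The median log2 difference of the 9 was 1.64. Between pairs of lines, the 9 genes gave 43 calls over 10 pairs. Of all genes, 20.2% were called between HPAFII and PATU8988S, and 21.9%, 23.5% and 25.6% between KP4 and PANC1, KP4 and PK45H, and PANC1 and PK45H. HPAFII against KP4, PANC1 and PK45H called 29.9%, 28.7% and 25.2% of genes, and PATU8988S against the same lines 32.5%, 29.3% and 28.3%.

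EGFR, the receptor of AREG and TGFA, had its highest untreated level in PK45H at 160, 205 and 175 CPM. PANC1 held 115, 150 and 117 CPM. HPAFII had 95.7, 74.2 and 123 CPM, PATU8988S 57.0, 73.1 and 59.5 CPM and KP4 51.5, 44.4 and 52.5 CPM. Neighbours in this order did not all separate: PANC1 against PK45H gave -0.49 (adjusted p = 0.0791), HPAFII against PANC1 -0.37 (adjusted p = 0.180) and PATU8988S against KP4 0.37 (adjusted p = 0.169). HPAFII was above PATU8988S by 0.66 (adjusted p = 0.0285). HPAFII and PATU8988S together were below the other lines by a log2 difference of -0.39 (SE 0.13, adjusted p = 0.0265). That call was lost when HPAFII replicate 1, PATU8988S replicate 1 or 3, or PK45H replicate 2 was left out, with adjusted p up to 0.0700.

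ERBB3 showed the widest gap between the lines among the receptors. It was at 123, 59.3 and 158 CPM in HPAFII and at 68.2, 88.9 and 78.6 CPM in PATU8988S. The other lines had 10.4, 6.02 and 7.90 CPM (KP4), 33.5, 28.0 and 9.20 CPM (PANC1) and 5.11, 9.60 and 13 CPM (PK45H), so every library of the first 2 lines was above every library of the other 3. The log2 difference was 2.97 (SE 0.28, adjusted p = 1.16e-06), and 3.11 without HPAFII replicate 2. Within the lower lines, PANC1 was above KP4 and PK45H (adjusted p = 0.0213 and 0.0354).

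ERBB2, the ligandless partner, varied little: its untreated libraries lay between 7.47 CPM in PANC1 and 22.6 CPM in HPAFII. The 5-line test gave an adjusted p of 0.0385, but the call was lost in 13 of the 15 fits that left out 1 untreated library. HPAFII and KP4 were above PANC1 (0.91 and 0.84, adjusted p = 0.0222 and 0.0365), and the difference of the 2 lines from the other 3 was 0.44 (SE 0.17, adjusted p = 0.0576). ERBB4, a receptor of neuregulins and of HBEGF, was near the limit of these libraries, with 425 counts over all 51 and at most 23 in one. Group means of ERBB4 ran from 1.13 to 2.38 CPM, and no comparison called it, so a difference was not detectable at this depth.

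AREG, a low-affinity EGFR ligand, was highest in HPAFII at 142, 73.4 and 217 CPM. PK45H followed with 21.1, 28.3 and 30.0 CPM and PATU8988S with 17.2, 17.1 and 18.2 CPM. KP4 had 11.5, 8.60 and 9.18 CPM and PANC1 5.43, 5.70 and 7.47 CPM. HPAFII did not overlap any other line and exceeded PK45H, the next, by 2.47 (SE 0.30, adjusted p = 3.4e-05). PK45H and PATU8988S were not separated (adjusted p = 0.148), nor were KP4 and PANC1 (adjusted p = 0.198). The 2 lines against the other 3 differed by 2.12 (SE 0.19, adjusted p = 8.22e-07), with PK45H above PATU8988S in each of its libraries.

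EREG, which binds EGFR and ERBB4, was also set apart by HPAFII, with 51.1, 20.3 and 84.8 CPM there and 1.58 to 8.93 CPM in every other untreated library. HPAFII exceeded each of the other 4 lines by at least 2.82 on the log2 scale (adjusted p at most 0.000153). PATU8988S was not separated from KP4 (-0.19, adjusted p = 0.802), so the log2 difference of 1.64 (SE 0.28, adjusted p = 0.000354) between the 2 lines and the other 3 came with HPAFII alone being high. TGFA, a high-affinity EGFR ligand, followed another order. Its values were 20.04, 5.47 and 24.0 CPM in HPAFII, 9.88, 8.23 and 8.07 CPM in PATU8988S and 6.10, 7.41 and 6.35 CPM in PK45H, and no library of KP4 or PANC1 passed 2.96 CPM. PK45H was above KP4 and PANC1 (adjusted p = 0.00628 and 0.0154) and was not separated from PATU8988S (adjusted p = 0.611). The 2 lines against the other 3 differed by 2.45 (SE 0.35, adjusted p = 7.05e-05).

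HBEGF, a heparin-binding ligand of EGFR and ERBB4, was highest in PK45H at 22.6, 25.1 and 19.1 CPM. KP4 (6.53 to 12.0 CPM) and PANC1 (5.24 to 13.2 CPM) lay below PK45H, by 1.37 and 1.39 (adjusted p = 0.00457 and 0.00441). HPAFII (14.5 to 20.5 CPM) was above both as well (adjusted p = 0.0223 and 0.0232). BTC, another EGFR and ERBB4 ligand, had 17, 0 and 21 counts in HPAFII, where the library at 0 was the shallow one, and at most 16 in any other untreated library. Its difference of 1.87 (SE 0.56, adjusted p = 0.0171) lost its call without PATU8988S replicate 3 (adjusted p = 0.0666). EPGN, the least abundant member, had 96 counts over the 51 libraries and was at 0 in 17 of them. Without the shallow HPAFII replicate 2, the differences of the 2 lines from the other 3 were 2.26 for AREG, 1.81 for EREG, 2.62 for TGFA, 2.07 for BTC and -0.32 for EGFR, all still called, and ERBB2 was then called as well (0.55, adjusted p = 0.00832).

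**Figure D1:**
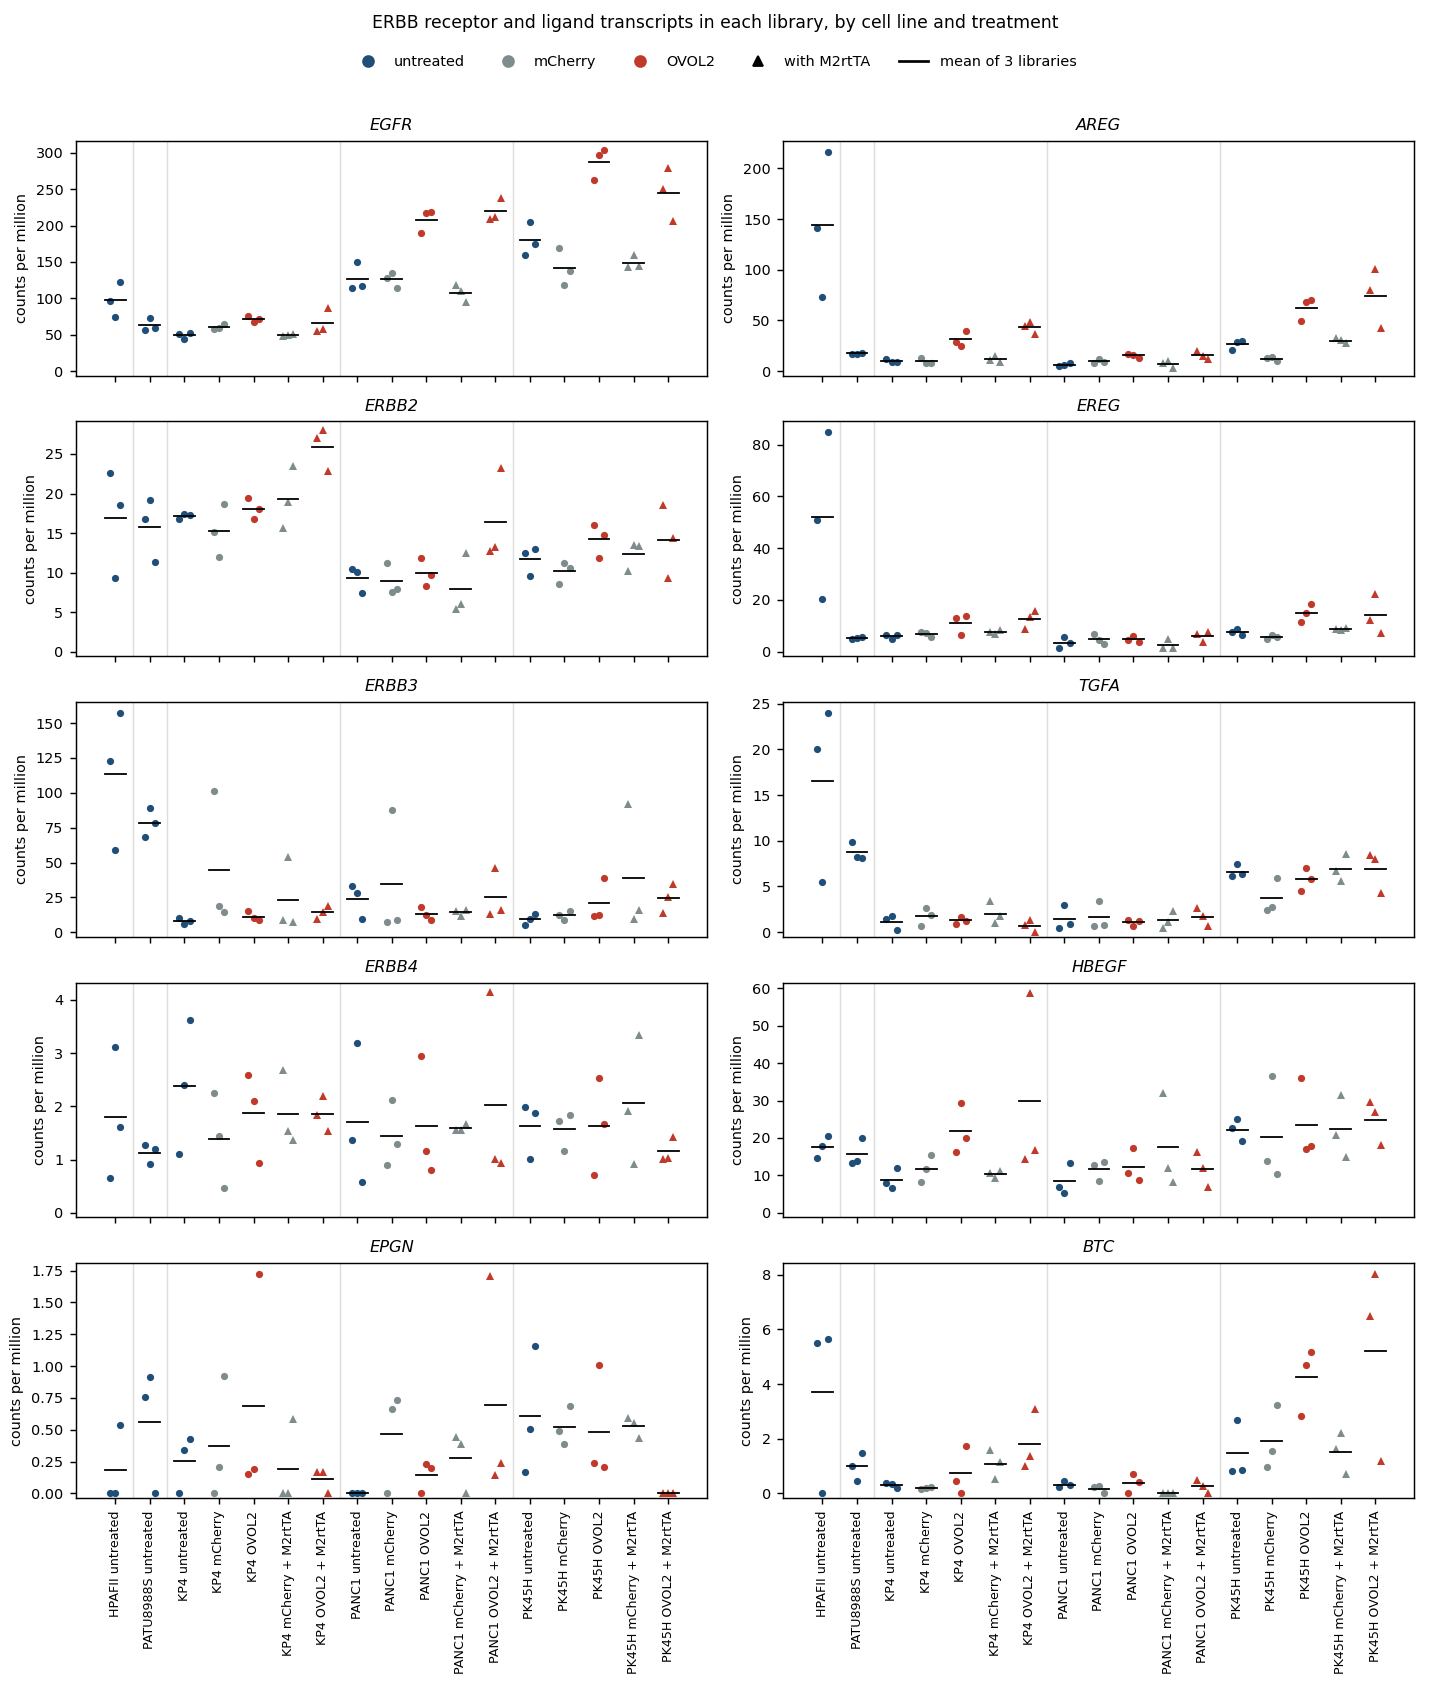
Levels in CPM of each of the 10 genes (vertical axes, each with its own scale) in every library of the 17 groups (horizontal axis), with a line at the mean of 3 libraries. EGFR rises with OVOL2 in PANC1 and PK45H, AREG is highest in untreated HPAFII and rises in the OVOL2 groups, and ERBB3 has single high libraries among the mCherry controls.

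OVOL2 was compared with mCherry in each line, without and with M2rtTA, to ask which transcripts differ after the transcription factor is delivered. EGFR and AREG were the 2 members for which every OVOL2 library was above every mCherry library in all 6 comparisons. Of 10277 genes with a mean of at least 5 CPM, 97 (0.944%) had that pattern. In a single comparison it was far more common, held by 12.6% to 17.1% of these genes. Over the 3 lines without M2rtTA, 3 of 9 tested members rose (EGFR, AREG and EREG), where 9.32% of all genes were called higher and 18.1% in either direction. With M2rtTA, 5 of 9 rose (EGFR, ERBB2, AREG, EREG and BTC), where 15.7% of all genes were called higher and 32.9% in either direction. No member fell. The median log2 change of the 9 was 0.42 without M2rtTA and 0.57 with it, beside 0.00098 and 0.033 over all genes.

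Within the lines, counts of members called were smaller, and every call was higher. KP4 had 1 of 7 tested members called without M2rtTA (AREG, background 6.82%) and 2 of 7 with it (AREG and HBEGF, background 22.4%). PANC1 had 1 of 8 without (EGFR, background 5.08%) and 3 of 8 with it (EGFR, ERBB2 and AREG, background 13.9%). PK45H had 3 of 8 without (EGFR, AREG and EREG, background 8.39%) and 2 of 8 with it (EGFR and AREG, background 15.9%). In KP4 with M2rtTA, the share of members called was thus near that of all genes.

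**Figure D2:**
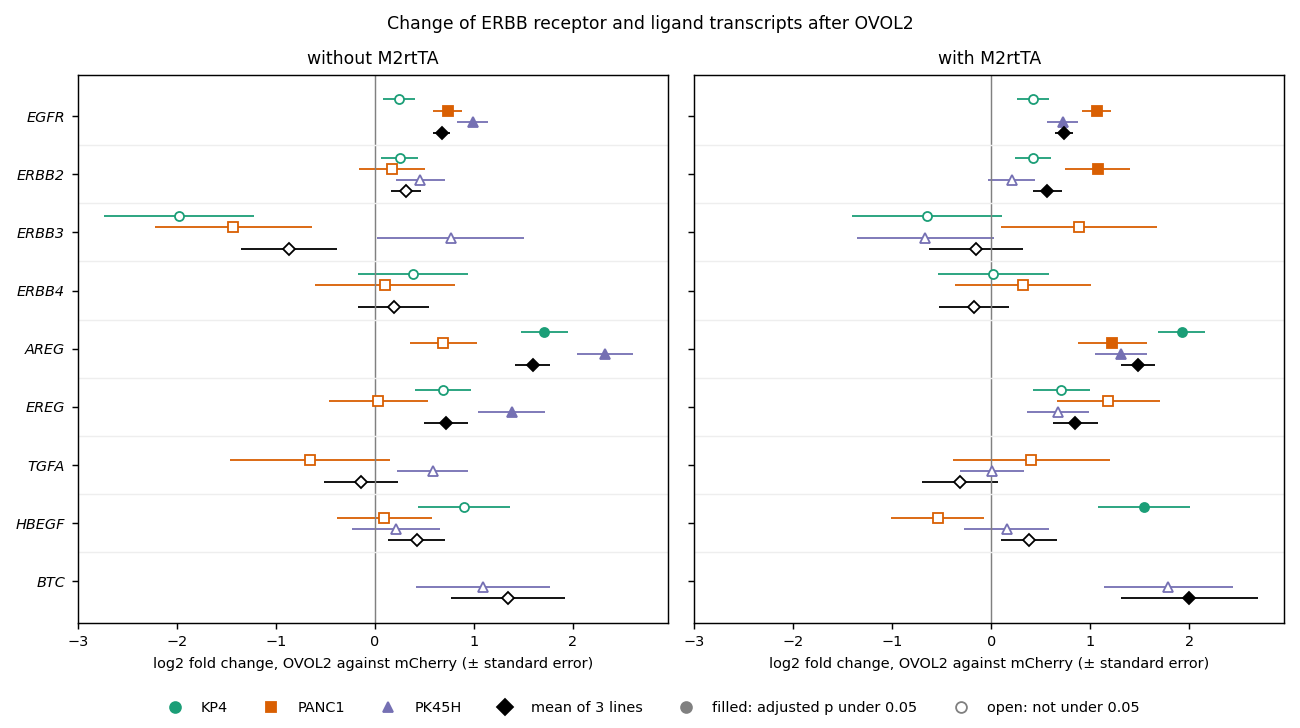
Log2 fold change of OVOL2 against mCherry with its standard error (horizontal axes) for the 9 genes that passed the filter, without M2rtTA (left) and with it (right), in each line and as the mean of 3 lines; filled symbols have an adjusted p under 0.05. AREG lies between 0.69 and 2.33 in the lines and EGFR between 0.25 and 1.06, while ERBB3 has wide errors on both sides of 0.

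In PANC1, EGFR was at 128, 135 and 115 CPM with mCherry and at 189, 217 and 218 CPM with OVOL2. With M2rtTA the values were 118, 110 and 94.5 CPM against 209, 212 and 238 CPM. The groups did not overlap, and the log2 changes were 0.74 (SE 0.15, adjusted p = 0.0109) and 1.06 (SE 0.15, adjusted p = 0.000309). The first of these missed the threshold without PANC1 mCherry replicate 3 (adjusted p = 0.0539).

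PK45H EGFR was at 169, 118 and 137 CPM with mCherry and at 262, 297 and 303 CPM with OVOL2. With M2rtTA it was at 142, 160 and 145 CPM against 250, 279 and 207 CPM. Both changes passed the threshold, at 0.99 (SE 0.16, adjusted p = 0.00131) and 0.72 (SE 0.16, adjusted p = 0.00671). KP4, the line with the least EGFR, showed smaller differences: 57.9, 59.0 and 64.4 CPM against 75.3, 67.0 and 72.2 CPM, and with M2rtTA 47.5, 50.1 and 51 CPM against 55.0, 57.7 and 86.3 CPM. The groups did not overlap there either. Without and with M2rtTA, all OVOL2 libraries were higher in KP4 for 13% and 17.1% of genes of at least 5 CPM. The EGFR changes of 0.25 (SE 0.16, adjusted p = 0.436) and 0.42 (SE 0.16, adjusted p = 0.0766) were not called. With M2rtTA, leaving out KP4 OVOL2 + M2rtTA replicate 1 brought the KP4 change past the threshold (0.54, adjusted p = 0.0393).

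Over the 3 lines EGFR rose by 0.68 (SE 0.087, adjusted p = 4.11e-07) without M2rtTA and by 0.74 (SE 0.088, adjusted p = 2.8e-08) with it. The test of a difference between the lines did not pass, with adjusted p = 0.0775 and 0.117. EGFR-AS1, the antisense gene that overlaps EGFR, had 59 counts over all libraries and at most 7 in one, beside 33035 for EGFR.

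ERBB2 rose over the lines with M2rtTA, by 0.57 (SE 0.15, adjusted p = 0.0031), and its change without M2rtTA was 0.31 (SE 0.15, adjusted p = 0.163). Among the lines it was called in PANC1 with M2rtTA, where mCherry gave 5.34, 6.00 and 12.5 CPM and OVOL2 12.7, 13.2 and 23.3 CPM. These groups just failed to overlap, where all OVOL2 libraries were higher for 13.6% of genes of at least 5 CPM. The log2 change was 1.07 (SE 0.32, adjusted p = 0.0405). Leaving out PANC1 mCherry + M2rtTA replicate 1 or 2, or OVOL2 + M2rtTA replicate 3, ended that call, with adjusted p between 0.143 and 0.179 and the lowest change at 0.75. The values for KP4 were 0.25 and 0.42 and for PK45H 0.46 and 0.21, none of them called.

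ERBB3 was not called in any OVOL2 comparison, and in 3 of the 4 comparisons that held a high mCherry library its direction changed without that library. PANC1 mCherry held 33, 664 and 47 counts, against 67, 54 and 44 with OVOL2. The PANC1 change was -1.43 (SE 0.80, adjusted p = 0.363) with all libraries and 0.70 without mCherry replicate 2. In KP4 with M2rtTA the change was -0.65, and 0.88 without the high library; in PK45H with M2rtTA it was -0.66, and 0.93 without it. In KP4 without M2rtTA the change was -1.97 (SE 0.75, adjusted p = 0.147), and -0.58 without the high library. Counts were also uneven in OVOL2 groups: PANC1 OVOL2 + M2rtTA replicate 2 had 322 beside 54 and 69, and PK45H OVOL2 replicate 3 had 188 beside 50 and 74. Over the lines the changes were -0.86 (SE 0.48, adjusted p = 0.235) and -0.15 (SE 0.48, adjusted p = 0.848). Both of these averages held the high mCherry libraries. Every OVOL2 library was below every untreated HPAFII and PATU8988S library, at most 46.2 CPM against at least 59.3 CPM. The same held for every untreated library of KP4, PANC1 and PK45H, at most 33.5 CPM.

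ERBB4 changed by 0.19 (SE 0.36) and -0.17 (SE 0.35) over the lines, neither of them called, at the low counts given above.

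Among the ligands, AREG was called higher in 5 of the 6 line comparisons. KP4 AREG was at 12.7, 8.22 and 7.59 CPM with mCherry and at 29.2, 24.7 and 39.6 CPM with OVOL2. With M2rtTA it was at 10.5, 14.6 and 9.32 CPM against 44.6, 48.4 and 36.1 CPM. The lowest OVOL2 library in KP4 was thus well above the highest mCherry library, and the changes were 1.71 (SE 0.24, adjusted p = 0.00081) and 1.92 (SE 0.24, adjusted p = 7.86e-05).

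In PK45H, AREG was at 13, 13.6 and 10.1 CPM with mCherry and at 49.6, 67.8 and 70.6 CPM with OVOL2, a change of 2.33 (SE 0.28, adjusted p = 0.000152). With M2rtTA the values were 32.2, 30.9 and 27.3 CPM against 80.1, 101 and 42.1 CPM, a change of 1.31 (SE 0.26, adjusted p = 0.00422). The PK45H controls differed: mCherry was below the untreated cells (21.1, 28.3 and 30.0 CPM), whereas mCherry + M2rtTA was at their level. mCherry against untreated gave -1.10 (adjusted p = 0.320) and mCherry + M2rtTA against mCherry 1.30 (adjusted p = 0.186). DESeq2 called the second of these (adjusted p = 0.00554), and edgeR did not. The change of the OVOL2 effect with M2rtTA in PK45H was -1.02 (SE 0.38, adjusted p = 0.180).

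PANC1, the line with the least AREG, had 8.10, 11.9 and 8.45 CPM with mCherry and 17.2, 15.9 and 13.1 CPM with OVOL2, a change of 0.69 (SE 0.34, adjusted p = 0.288). With M2rtTA it had 7.78, 10.1 and 2.70 CPM against 20.2, 15.2 and 12.0 CPM, a change of 1.23 (SE 0.35, adjusted p = 0.0313). That call ended without PANC1 mCherry + M2rtTA replicate 1 or 3 or OVOL2 + M2rtTA replicate 1 or 2, with adjusted p between 0.0578 and 0.103. Over the lines AREG rose by 1.60 (SE 0.18, adjusted p = 1.59e-08) without M2rtTA and by 1.48 (SE 0.17, adjusted p = 1.86e-08) with it. The test of a difference between lines gave an adjusted p of 0.0573 without M2rtTA and 0.508 with it. The highest OVOL2 library, at 101 CPM in PK45H, exceeded the lowest HPAFII library and not the other 2.

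EREG, next to AREG on chromosome 4, rose by 0.72 (SE 0.22, adjusted p = 0.0214) over the lines without M2rtTA and by 0.85 (SE 0.22, adjusted p = 0.00307) with it. In PK45H, mCherry gave 4.91, 6.59 and 5.51 CPM and OVOL2 11.3, 15 and 18.5 CPM, without overlap. All OVOL2 libraries were higher there for 17.1% of genes of at least 5 CPM. The EREG change was 1.38 (SE 0.34, adjusted p = 0.0212). This was the call for EREG within a line, and it ended without PK45H mCherry replicate 1 or 3 or OVOL2 replicate 2 or 3 (adjusted p up to 0.0833). KP4 changes were 0.69 and 0.71 (adjusted p = 0.177 and 0.0913), PANC1 changes 0.04 and 1.18 (adjusted p = 0.982 and 0.156) and the PK45H change with M2rtTA 0.68 (adjusted p = 0.166). The call over the lines without M2rtTA missed the threshold without PANC1 mCherry replicate 3 or OVOL2 replicate 2 (adjusted p = 0.0533 and 0.0551) and without the libraries with high ERBB3 (0.73, adjusted p = 0.0560).

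BTC, the most distant ligand of the chromosome 4 group, was called over the lines with M2rtTA at 2.00 (SE 0.69, adjusted p = 0.0246), from few counts. PK45H carried most of them, with 11, 12 and 5 counts for mCherry + M2rtTA and 32, 31 and 5 for OVOL2 + M2rtTA. These groups overlapped at their lower ends, with the lowest OVOL2 library at 1.18 CPM and the mCherry libraries between 0.73 and 2.22 CPM. KP4 had 7, 2 and 6 counts against 6, 8 and 12, and PANC1 had none in the control group and 2, 2 and 0 with OVOL2, so the fitted value depends on the prior count. The call ended without PANC1 OVOL2 + M2rtTA replicate 1 or 2 (adjusted p = 0.0744 and 0.0561) and without the libraries with high ERBB3 (1.91, adjusted p = 0.0510). In PK45H alone the changes were 1.09 (adjusted p = 0.359) and 1.79 (adjusted p = 0.0788). EPGN, at the other end of the group, was never tested, and the 3 PK45H OVOL2 + M2rtTA libraries held none of its counts against 4, 3 and 3 in the control.

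HBEGF was called in KP4 with M2rtTA, where mCherry gave 10.5, 9.19 and 11.3 CPM and OVOL2 14.2, 58.8 and 16.9 CPM. The change of 1.54 (SE 0.47, adjusted p = 0.029) rested on replicate 2, which had 349 counts beside 85 and 66; without it the change was 0.59 (adjusted p = 0.247). The call was also lost without any 1 of the 3 mCherry + M2rtTA libraries (adjusted p between 0.0630 and 0.0895). KP4 without M2rtTA had 8.22, 11.7 and 15.4 CPM against 16.3, 29.3 and 19.9 CPM, without overlap. All OVOL2 libraries were higher there for 13% of genes of at least 5 CPM. The HBEGF change was 0.90 (SE 0.46, adjusted p = 0.297). PANC1 and PK45H changes lay between -0.54 and 0.22, and over the lines HBEGF changed by 0.42 and 0.38 (adjusted p = 0.340 and 0.320).

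TGFA was not called in any OVOL2 comparison, at -0.14 (SE 0.37) and -0.31 (SE 0.38) over the lines. PK45H, the transduced line with the most TGFA, gave 0.59 (SE 0.36) without M2rtTA and 0.0047 (SE 0.32) with it.

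edgeR called no member for mCherry against untreated in any line, where 0% of all genes were called in KP4, 0.598% in PANC1 and 0.00736% in PK45H. None was called for M2rtTA without OVOL2 either, where 0% of genes were called in KP4, 0% in PANC1 and 0.0294% in PK45H. At an unadjusted p under 0.05, the first comparison held AREG and TGFA in PK45H (-1.10 and -0.78) and ERBB3 in KP4 (2.46). The second held AREG, TGFA and ERBB3 in PK45H (1.30, 0.86 and 1.69). Both ERBB3 values held a high library. KP4 mCherry replicate 1 was at 101 CPM beside 18.9 and 14.3 CPM, against 10.4, 6.02 and 7.90 CPM untreated, so the groups did not overlap. PK45H mCherry + M2rtTA replicate 1 was at 92.0 CPM beside 9.44 and 16.1 CPM, against 12.5, 8.53 and 14.9 CPM with mCherry. The change of the OVOL2 effect by M2rtTA called 0 members over the lines, where 7.72% of genes were called, with 0.059 for EGFR and -0.11 for AREG. In single lines it also called 0, where the background was 1.43% in KP4, 0.136% in PANC1 and 1.60% in PK45H. The difference of the OVOL2 effect between lines called 0 of 9 members, where 2.74% of genes were called without M2rtTA and 7.56% with it. At an unadjusted p under 0.05, these tests held AREG in PK45H for the change by M2rtTA, AREG and EGFR for the line difference without M2rtTA and EGFR and HBEGF for that with it. Of all these comparisons, DESeq2 called AREG for M2rtTA without OVOL2 in PK45H, and AREG and EGFR (adjusted p = 0.0231 and 0.0467) for the line difference without M2rtTA.

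Across the 17 group means, the gene whose pattern was most like that of AREG was its neighbour EREG, with a Pearson r of 0.92 on log2 CPM, among 10276 genes with a mean of at least 5 CPM. LRP10 (0.92) and MAN2B1 (0.90) were next. For EGFR the nearest were ATP6AP1 (0.95), RNF40 (0.94) and MLF1 (0.93), and no member was among them. ERBB2 was nearest to FAM111A (0.92), TRIB1 (0.91) and MOAP1 (0.90). ERBB3 was nearest to RUSC1-AS1 (0.89), MUC13 (0.88) and GCNT3 (0.87). EREG followed AREG (0.92), NDFIP1 (0.87) and RBMS2 (0.86), and HBEGF followed POLM (0.90), HLA-F (0.89) and OSBP2 (0.88). Between members, AREG and HBEGF had an r of 0.75, EGFR and AREG 0.29 and EGFR and ERBB2 -0.48. The groups share lines, so these values describe the pattern and are no test, and AREG and EREG share the high HPAFII point.

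**Figure D3:**
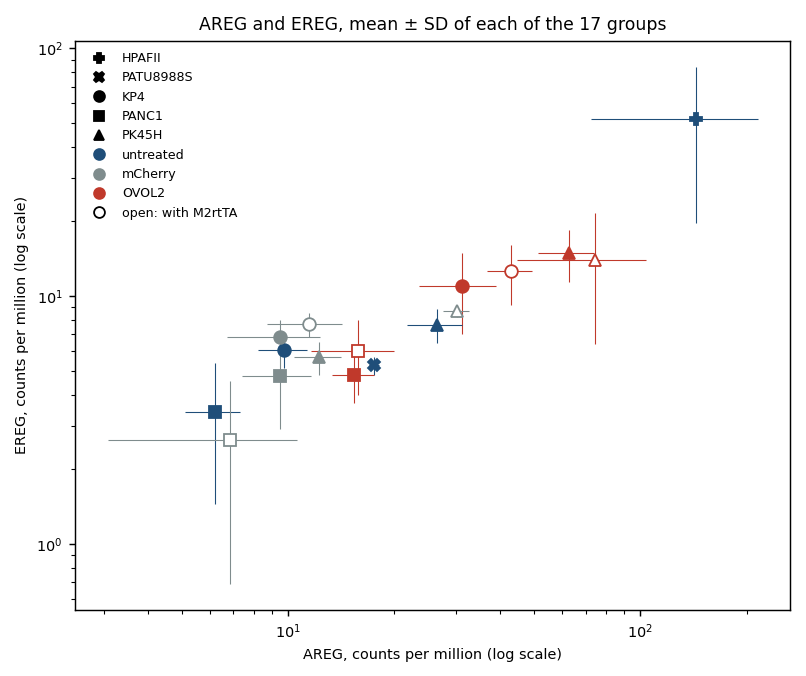
Mean CPM of AREG (horizontal, log scale) and EREG (vertical, log scale) in the 17 groups with SD bars over 3 libraries; symbols mark the line, colours the treatment and open symbols M2rtTA. Untreated HPAFII is at the upper right, with means of 144 and 52.1 CPM, and the OVOL2 groups lie to the right of the mCherry groups of their line.

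The rest of the pathway was read from 6 lists, over the 3 lines with M2rtTA, where 15.7% of all genes rose and 17.3% fell. Of the other ERBB ligands (EGF and the neuregulins), 3 of 5 were tested and 1 fell. This was NRG2, a neuregulin that binds ERBB3 and ERBB4, with a change of -2.34 (SE 0.21, adjusted p = 3.92e-11), and it passed the threshold in each of the 3 lines. Its mean was 11.7, 18.7 and 4.27 CPM in the KP4, PANC1 and PK45H mCherry + M2rtTA groups and 2.76, 2.19 and 1.17 CPM in the OVOL2 + M2rtTA groups. Without M2rtTA the NRG2 change was -1.30 (SE 0.21, adjusted p = 2.01e-05).

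Among the genes that release ligands from the membrane, 3 of 6 rose and 1 fell, with a median of 0.34. RHBDF1, an iRhom that carries the sheddase ADAM17 through the cell, rose by 0.72 (SE 0.088, adjusted p = 5.17e-08), and RHBDF2, the other iRhom, by 0.58 (SE 0.21, adjusted p = 0.0303). ADAM17 itself was not called, at 0.10 (SE 0.37, adjusted p = 0.867). The RHBDF2 call was lost in 9 of the fits that left out 1 library. The metalloprotease ADAM9 fell by 0.50 (SE 0.099, adjusted p = 0.000158). By line ADAM9 was called in KP4 (-0.82) and not in PANC1 (-0.43, adjusted p = 0.138) or PK45H (-0.23, adjusted p = 0.433). RHBDF1 was called in KP4 (0.89) and PK45H (0.78) and not in PANC1 (0.49, adjusted p = 0.0548). ADAM10, which releases several EGF-family ligands, gave 1.78 (SE 0.56, adjusted p = 0.0133) and missed the threshold without KP4 OVOL2 + M2rtTA replicate 2 or PK45H OVOL2 + M2rtTA replicate 3 (adjusted p = 0.0516 and 0.0559). By line ADAM10 changed by 2.43 (KP4) and 3.52 (PK45H), both called, and gave -0.57 (PANC1, adjusted p = 0.785). The OVOL2 + M2rtTA libraries ran from 22.8 to 505 CPM in KP4 and from 54.3 to 1488 CPM in PK45H. Without M2rtTA the ADAM10 change was -0.20 (SE 0.55, adjusted p = 0.853). By line it was 0.95 (KP4), -2.84 (PANC1) and 1.21 (PK45H), none of them called. The PANC1 value held a high control library, as mCherry replicate 2 had 19762 ADAM10 counts beside 312 and 232. Of the 6 genes, 1 was called without M2rtTA, RHBDF1 at 0.60, where 9.32% of all genes rose and 18.1% were called in either direction.

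Of the list of genes that restrain the receptors or are partners of those that do, 14 of 15 were tested, 3 rose and 2 fell. ERRFI1, which binds and inhibits the EGFR kinase, rose by 0.44 (SE 0.12, adjusted p = 0.00462), and SOCS5, which promotes EGFR degradation, by 0.50 (SE 0.16, adjusted p = 0.0156). The SOCS5 call was lost without the libraries with high ERBB3 (0.44, adjusted p = 0.0622). UBASH3B and SH3KBP1, both partners of the CBL ubiquitin ligases, fell by 0.74 (SE 0.095, adjusted p = 1.08e-07) and by 0.49 (SE 0.078, adjusted p = 5.87e-06). These counts were near the shares of all genes. Without M2rtTA 4 of the list rose and 2 fell, where 9.32% of all genes rose and 18.1% were called in either direction.

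Of the genes that bind, chaperone or sort the receptors, 11 of 13 were tested, 3 rose and 3 fell. EPS8, an EGFR substrate that acts on actin, fell by 1.22 (SE 0.16, adjusted p = 1.73e-07). The membrane mucin MUC1 fell by 1.04 (SE 0.23, adjusted p = 0.000513) and the chaperone HSP90AA1 by 0.64 (SE 0.11, adjusted p = 2.59e-05). USP8, which removes ubiquitin from sorted receptors, gave 1.84 (SE 0.48, adjusted p = 0.00276). Among the libraries compared, the 3 of KP4 OVOL2 + M2rtTA ran from 321 to 3516 CPM, the highest of them with 20858 USP8 counts.

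Of the 25 genes of the signal relay, 10 fell and 4 rose, with a median of -0.20. MAP2K1, the kinase that activates ERK, fell by 0.69 (SE 0.078, adjusted p = 9.99e-09) and passed the threshold in each of the 3 lines. PLCG1 fell by 0.89 (SE 0.18, adjusted p = 0.000167), SOS2, a RAS exchange factor, by 0.78 (SE 0.18, adjusted p = 0.000648) and PIK3R1, the regulatory subunit of PI3-kinase, by 0.89 (SE 0.30, adjusted p = 0.0216). The PIK3R1 call was lost without KP4 mCherry + M2rtTA replicate 1 or PK45H mCherry + M2rtTA replicate 3. Without M2rtTA, 1 of the 25 relay genes rose and 2 fell, where 18.1% of all genes were called in either direction.

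Of 16 genes commonly read as output of ERK, 3 rose and 3 fell, with a median of -0.040, close to the shares of all genes (15.7% and 17.3%). EGR1, an immediate-early factor, rose by 1.12 (SE 0.18, adjusted p = 4.74e-06), and DUSP5, a nuclear ERK phosphatase, by 0.77 (SE 0.078, adjusted p = 8.94e-10). ETV5, an ETS factor, fell by 1.5 (SE 0.19, adjusted p = 6.31e-08), in each of the 3 lines, and SPRED1, an inhibitor of RAS signalling, by 0.55 (SE 0.13, adjusted p = 0.00148). ETV5 means were 24.1, 28.9 and 23.5 CPM in the KP4, PANC1 and PK45H mCherry + M2rtTA groups and 5.96, 11.6 and 10.2 CPM with OVOL2. Without M2rtTA, DUSP5 (0.88) and ETV5 (-1.24) were called in the same directions and EGR1 changed by 0.098 (adjusted p = 0.773).

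**Figure D4:**
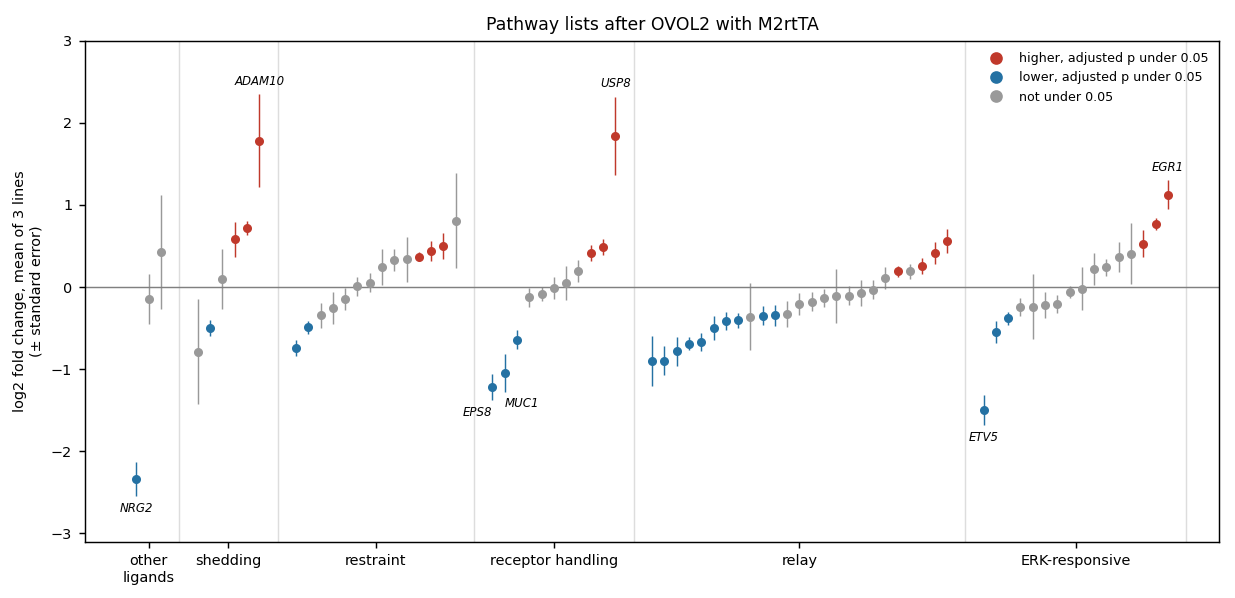
Log2 fold change of OVOL2 + M2rtTA against mCherry + M2rtTA, the mean of 3 lines, with its standard error (vertical axis), for the tested genes of each list (horizontal axis), red where higher and blue where lower at an adjusted p under 0.05. The relay list has 10 of 25 genes in blue and 4 in red, and the single called gene of the other ligands is NRG2 at -2.34.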

How the data were processed

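Raw counts per gene and library were deposited by the authors. Kallisto 0.44.0 and GRCh38 are named, with no role, in the submitters' processing notes; unique molecular identifiers and strand are not given in the sources used here. Columns were matched to samples by the column name in each sample's description, and groups were read from the titles. The 10 members and the pathway lists were chosen with earlier results of these data known. All 10 members were described. Up to 4 genes per list were named by the largest called change over lines with M2rtTA, with those called in all 3 lines. ADAM17, which was not called, was named beside RHBDF1. Counts were tested with edgeR 4.0.16 (quasi-likelihood, TMM, filterByExpr, R 4.3.3, limma 3.58.1) and Benjamini-Hochberg adjustment at 0.05. Fits held each line's 15 libraries, the 45 libraries of the 3 transduced lines, or the 15 untreated libraries. The standard error was derived from the F statistic. CPM used all 51 libraries, whose totals were 1165399 to 7490556 counts, so transcripts at or below 3 counts were taken as at the floor. The method was tested on data simulated from KP4, for OVOL2 with M2rtTA. It called 22% of 100 genes changed by a log2 of 1 and 69% of 100 changed by 2, with 4 false calls. No other gene of the 13420 tested was changed, whereas 22.4% of genes were called in the real comparison. The adjusted p depends on that share, so these rates need not hold there. A missing call within a line still does not show that a gene was unchanged. Alternatives were DESeq2 1.42.0, other scaling, filters, dispersion, sample sets and thinning, a replicate block and leaving out libraries; leaving out the 4 libraries with high ERBB3 was chosen after seeing the data. Same-group libraries were compared in 51 pairs, of which 0 were identical. Coordinates and promoters are from RefSeq, GRCh38.p14.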

Additional observations from a re-analysis of the deposited data

Results flagged for a closer look

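Among the pathway genes named above, the effect of OVOL2 over the lines differed with and without M2rtTA for 3, by a test of that difference. In the 6 lists that test called 1 of the other ligands, 1 gene of receptor handling, 2 of the relay and 2 ERK-responsive genes, where 7.72% of all genes were called. EGR1 changed by 1.02 more with M2rtTA (SE 0.25, adjusted p = 0.00939). HSP90AA1 changed by -0.64 (SE 0.16, adjusted p = 0.00945) and NRG2 by -1.04 (SE 0.30, adjusted p = 0.0270). The effect with M2rtTA differed between the lines for 6 of the genes named above. In the lists that test called 3 genes of restraint, 1 of receptor handling, 2 of the relay and 2 ERK-responsive genes, where 7.56% of all genes were called. In the order KP4, PANC1, PK45H, EPS8 changed by 0.05, -1.63 and -2.06 (adjusted p = 0.00162). SH3KBP1 was at -0.34, -1.14 and 0.02 (adjusted p = 0.000488), and UBASH3B at -0.40, -1.37 and -0.46 (adjusted p = 0.00809). PLCG1 was at 0.19, -2.12 and -0.74 (adjusted p = 0.00393). ERRFI1 was at 0.11, -0.04 and 1.27 (adjusted p = 0.00734), and DUSP5 at 0.28, 1.06 and 0.98 (adjusted p = 0.0102). None of these 9 genes is one of the 10 receptors and ligands.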

How the results depend on the processing

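Of 66 values past the threshold, none changed sign in 1627 recomputed values, and 89 of these missed the threshold; 54 other values gave 1070, of which 24 passed the threshold and 36 changed sign, none of the latter past it. The count of members called in KP4 with M2rtTA fell from 2 to 1 with only the groups compared and without the libraries with high ERBB3, and in PANC1 with M2rtTA from 3 to 1 with only the groups compared and after thinning to the smallest library. DESeq2 called 1 member (AREG) for M2rtTA without OVOL2 in PK45H, and 2 for the difference between lines without M2rtTA, where only the groups compared, robust dispersion and the replicate block each called 1 (AREG, adjusted p = 0.0479 under the block). Thinning gave 2 over the lines with M2rtTA, 5 for the untreated lines and 27 for their 10 pairs, in place of 5, 8 and 43. The replicate numbers did not pair the libraries: same-number deviations had median correlations of -0.016, 0.0020 and 0.0012 in KP4, PANC1 and PK45H, and 12 of 45 libraries correlated best with their own number.

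Leaving out 1 library at a time gave 1 to 4 members in KP4 with M2rtTA, 0 to 1 in PANC1 without and 1 to 3 with it, 2 to 3 in PK45H without and 2 to 4 with it, 2 to 3 over the lines without and 4 to 5 with it. It gave 0 to 1 for the difference between lines without and 0 to 1 with M2rtTA, 7 to 8 for the untreated lines, 5 to 7 for 2 lines against 3 and 38 to 47 for the pairs. Values that changed sign were all uncalled, and the cause was not tested. After thinning ERBB2 in PANC1 without M2rtTA was -0.11. Without the libraries with high ERBB3, PANC1 without M2rtTA gave EREG -0.017, TGFA 0.60 and HBEGF -0.091, and TGFA gave 0.14 over the lines without M2rtTA and -0.044 in PK45H with it (-0.037 with no filter and -0.00062 in one fit of all libraries). With 1 library left out, ERBB2 in PK45H with M2rtTA ran from -0.044 to 0.41, ERBB3 from -1.87 to 0.70 in PANC1 without, -0.034 to 1.04 in PK45H without, -1.09 to 0.88 in KP4 with, -1.13 to 0.93 in PK45H with and -0.42 to 0.39 over the lines with M2rtTA. ERBB4 over the lines ran from -0.046 to 0.37 without and -0.50 to 0.0076 with M2rtTA, and EREG in PANC1 without from -0.17 to 0.37. TGFA ran from -0.97 to 0.60 in PANC1 without, -0.29 to 0.28 over the lines without and -0.18 to 0.26 in PK45H with M2rtTA. HBEGF ran from -0.22 to 0.31 in PANC1 without, -0.23 to 0.96 in PK45H without, -0.87 to 0.24 in PANC1 with and -0.073 to 0.47 in PK45H with M2rtTA, and EGR1 from -0.027 to 0.20 over the lines without it. The depth of these libraries limits ERBB4, BTC, EPGN and TGFA most, which had 425, 338, 96 and 960 counts over 51 libraries.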
